A study of Mus musculus with 21 samples.

Results

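Regions of the E12.5 mouse heart ventricle that carried a GATA4 peak in the Tnnt2-Cre lineage and none in the Tie2-Cre lineage, and that were nevertheless open in sorted Tie2-Cre cells, numbered 3805 of 49798 merged GATA4 regions. GATA4 peaks of 6 libraries were merged where they shared 1 bp. A region was a member with a peak in at least 2 of 3 Tnnt2-Cre libraries, in 0 of 3 Tie2-Cre libraries, and an overlap of 1 bp with a merged ATAC region that held peaks of both Tie2-Cre ATAC libraries. Of the 9086 regions selective for Tnnt2-Cre, the other 5281 were not open in this sense. The members were chosen by peak presence in those 8 libraries, so GATA4 signal and openness in Tie2-Cre cells are given as descriptions without a test. The 2 kinds of measurement that the rule did not use were RNA of endothelial cells (EC) and cardiomyocytes (CM), and ATAC of EC from Gata4 het and Gata4 ko embryos.

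All samples were taken at E12.5. For GATA4, 15 to 20 ventricles were pooled per library, GATA4 was biotinylated where Tie2-Cre (endothelial and endocardial cells, also blood cells) or Tnnt2-Cre (cardiomyocytes) was active, and bound chromatin was pulled down with streptavidin, with 3 libraries per Cre line. EC carrying Rosa26fsTrap and Tie2Cre were sorted for ATAC (2 libraries, 40000 cells each) and for polyadenylated RNA (2 libraries, 60000 cells each), and 3 libraries of cardiomyocyte RNA were set against them. A further 6 ATAC libraries of 20000 sorted cells each, 3 labelled Gata4 het and 3 labelled Gata4 ko, came from cells in which Cdh5(Pac)-CreERT2 had switched on the Rosa26mTmG reporter after 1 mg of tamoxifen at E9.5, in both genotypes alike. The labels give no strain, no litter of origin and no further allele. Because nothing says that replicates came from separate litters, p-values measure the spread between these samples, which may be technical. The labels do not describe how heart muscle cells were purified for RNA, and cardiomyocyte ATAC was not analysed here. Whether members are open in cardiomyocytes was therefore not measured.

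GATA4 is a zinc finger transcription factor that binds the letters AGATAA and close variants and acts in cardiomyocytes together with NKX2-5, TBX5 and MEF2 factors on contractile and hormone genes. In endocardium the same factor is needed for valve development, and its sites there lie only in part near other genes. Open chromatin is a state in which nucleosomes are displaced. Promoters of widely expressed genes are open in most cell types, while distal enhancers tend to be open in few.

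The members at gene starts differed in base composition and in GATA letters, and 8 of these stretches are shown to let a reader see the letters beside the RNA values. RefSeq promoter windows (250 bases before to 50 after a start, GRCm38.p6, the mm10 coordinates) had their start inside a member in 247 cases, from 235 genes and 222 members. Shown are the 250 bases before the start of the 6 CM-higher and 2 EC-higher genes with the greatest RNA differences among those with AGATAA, on either strand, before the start and no library of the higher cell type under 20 CPM (read counts scaled to the size of the library). Windows touching an annotated exon were left out, and the selection was made after values were seen. Capitals mark AGATAA or its reverse complement TTATCT. The first 6 are Smpx (chrX:157698723-157698972, plus strand), 3425401B19Rik (chr14:32685273-32685522, minus), Tecrl (chr5:83355196-83355445, minus), Adprhl1 (chr8:13254163-13254412, minus), Popdc2 (chr16:38361940-38362189, plus) and Lrrc10 (chr10:117045091-117045340, plus). The EC-higher pair is Abhd8 (chr8:71463658-71463907, minus) and Sumf2 (chr5:129846740-129846989, plus).
Smpx: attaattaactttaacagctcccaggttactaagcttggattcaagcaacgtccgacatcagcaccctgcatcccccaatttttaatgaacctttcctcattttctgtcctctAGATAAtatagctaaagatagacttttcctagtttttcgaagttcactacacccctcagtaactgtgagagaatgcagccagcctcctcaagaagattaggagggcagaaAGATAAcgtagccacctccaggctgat
3425401B19Rik: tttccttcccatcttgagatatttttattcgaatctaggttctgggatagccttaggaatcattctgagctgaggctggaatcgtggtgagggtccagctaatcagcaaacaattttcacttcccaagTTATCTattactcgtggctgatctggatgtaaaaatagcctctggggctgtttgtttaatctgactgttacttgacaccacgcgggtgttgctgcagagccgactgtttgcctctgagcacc
Tecrl: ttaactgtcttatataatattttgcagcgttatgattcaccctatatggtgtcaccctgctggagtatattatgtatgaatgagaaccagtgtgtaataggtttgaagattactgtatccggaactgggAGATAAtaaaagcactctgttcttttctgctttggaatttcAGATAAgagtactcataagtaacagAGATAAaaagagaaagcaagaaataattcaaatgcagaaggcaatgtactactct
Adprhl1: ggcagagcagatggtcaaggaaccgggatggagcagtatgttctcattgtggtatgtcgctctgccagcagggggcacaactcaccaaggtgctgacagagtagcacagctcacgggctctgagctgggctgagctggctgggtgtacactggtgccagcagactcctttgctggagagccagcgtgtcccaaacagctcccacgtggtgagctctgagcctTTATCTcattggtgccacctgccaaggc
Popdc2: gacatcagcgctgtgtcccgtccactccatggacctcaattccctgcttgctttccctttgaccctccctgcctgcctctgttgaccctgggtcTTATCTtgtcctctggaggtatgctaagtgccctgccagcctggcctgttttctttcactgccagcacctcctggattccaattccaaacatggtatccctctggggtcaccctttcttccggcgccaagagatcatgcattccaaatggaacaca
Lrrc10: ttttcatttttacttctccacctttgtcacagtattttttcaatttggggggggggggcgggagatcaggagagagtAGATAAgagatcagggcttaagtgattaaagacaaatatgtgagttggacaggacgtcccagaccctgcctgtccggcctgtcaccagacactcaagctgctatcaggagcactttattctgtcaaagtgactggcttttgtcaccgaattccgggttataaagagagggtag
Abhd8: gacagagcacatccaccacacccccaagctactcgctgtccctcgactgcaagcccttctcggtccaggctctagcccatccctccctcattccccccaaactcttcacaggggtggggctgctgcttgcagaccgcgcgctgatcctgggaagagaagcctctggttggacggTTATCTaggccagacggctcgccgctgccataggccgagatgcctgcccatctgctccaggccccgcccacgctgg
Sumf2: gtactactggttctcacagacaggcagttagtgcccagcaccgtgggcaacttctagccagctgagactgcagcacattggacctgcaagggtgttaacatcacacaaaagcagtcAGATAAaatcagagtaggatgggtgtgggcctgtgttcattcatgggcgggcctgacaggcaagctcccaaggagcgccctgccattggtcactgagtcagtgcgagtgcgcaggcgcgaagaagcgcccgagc

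Every capitalised match lay inside its member. Smpx, a small muscle protein gene, had 2 matches, beginning 137 and 27 bases before the start, and Tecrl, a reductase-like gene tied to cardiac rhythm, had 3, beginning 121, 80 and 55 bases before it. The Tecrl stretch was 34.4% G and C with 2 CpG, and the Smpx stretch 42.8% with 4. In the Abhd8 stretch G and C made up 64.4%, with 13 CpG, in the Adprhl1 stretch 58.8%, with 5, and in the Sumf2 stretch 56.8%, with 9. The Smpx member had a GATA4 percentile rank of 91.1 and a Tie2-Cre ATAC rank of 45.6. Here a percentile rank is the mean place of a region's peak signal within those of the authors' lists that held a peak there, 100 being the strongest. For Lrrc10, a heart leucine-rich repeat gene, the ranks were 88.4 and 62.4, and for Popdc2, a cAMP-binding membrane protein gene, 85.4 and 71.3. The ATAC rank exceeded the GATA4 rank for Abhd8 (97.5 and 39.6), Sumf2 (94.5 and 66.0), Adprhl1 (49.98 and 7.91) and Tecrl (59.5 and 53.5). Abhd8, Sumf2 and Popdc2 had an ATAC peak in all 3 het and all 3 ko libraries, Tecrl and Adprhl1 in 5 of these 6, 3425401B19Rik in 3, Smpx in 1 and Lrrc10 in 0.

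RNA of the shown genes differed between the cell types, as their choice by RNA difference required, so these values are a description. Smpx stood at 1.21 and 2.58 CPM in EC and at 470, 561 and 541 in CM. Tecrl read 0.319 and 0.634 CPM in EC and 81.0, 85.7 and 80.8 in CM. Values for Abhd8 were 28.2 and 30.3 CPM in EC and 8.33, 6.82 and 8.30 in CM. In each of these 3 genes the EC and CM libraries stood apart. How many of all tested genes do so was not counted, for these genes or for those below. Of all tested genes 77.8% were called, so groups that stand apart do not mark a gene. The log2 differences, CM over EC, were 8.16 (SE 0.21) for Smpx, 7.48 (SE 0.17) for Tecrl and -1.90 (SE 0.12) for Abhd8. Their edgeR adjusted p-values were 1.45e-10, 7.00e-11 and 1.07e-07. Popdc2 read 5.32 and 4.71 CPM in EC and 268, 246 and 271 in CM, and Lrrc10 1.21 and 0.453 in EC and 41.9, 44.7 and 48.4 in CM. Adprhl1, an ADP-ribosylhydrolase-like gene, read 1.70 and 1.40 CPM in EC and 268, 260 and 279 in CM, although its member ranked only 7.91 in GATA4. Sumf2, a sulphatase modifying factor gene, differed least, with 25.2 and 30.1 CPM in EC and 14, 16.5 and 15.3 in CM.

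Most members rested on the 2 long Tnnt2-Cre lists. A peak was present in 3783 members in Tnnt2-Cre replicate 1, in 469 in replicate 2 and in 3803 in replicate 3. Replicate 2 was a short list, of 3603 peaks against 22814 and 30447, so 3360 members had a peak in 2 of 3 libraries and 445 in 3 of 3. Without replicate 1 the rule found 465 members and without replicate 3 it found 444, while without Tie2-Cre replicate 3, the longest Tie2-Cre list, it found 5900. Cutting the 6 GATA4 lists to the shortest left 941. Just outside the rule were 5941 regions with a peak in 1 Tnnt2-Cre library only, 2626 with a peak in 1 Tie2-Cre library as well, and 754 whose ATAC region had a peak of 1 library. Presence in a list depends on the depth and peak calling of that library, and an absent peak does not show absent GATA4.

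Within the lists the members ranked in the middle. Their median GATA4 rank was 42.8, 41.5 and 52.9 in Tnnt2-Cre replicates 1 to 3, against 55.6, 45.9 and 64.2 for Tnnt2-Cre-selective regions not open in EC. In Tie2-Cre ATAC their median rank was 59.1 and 65.1, against 76.0 and 79.1 for regions selective for Tie2-Cre GATA4 and open, and 86.3 and 87.9 for open regions shared by both lineages. Across members the GATA4 rank and the ATAC rank ran against each other, with a Spearman rho of -0.30 over 3805 regions. It was -0.21 over the 3208 members away from gene starts and -0.10 over the 445 with a peak in 3 of 3 libraries. These ranks come from the libraries that chose the members, so the relation is a description. The 445 members with a peak in 3 of 3 had median GATA4 ranks of 81.0, 43.1 and 83.9 in replicates 1 to 3. The short list of replicate 2 thus lowered their mean rank, also in the groups ordered by GATA4 rank. Among the 952 members lowest in GATA4 rank the median ATAC rank was 75.6 and 25.5% lay at a start, and among the 951 highest these were 51.2 and 5.15%.

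**Figure D1:**
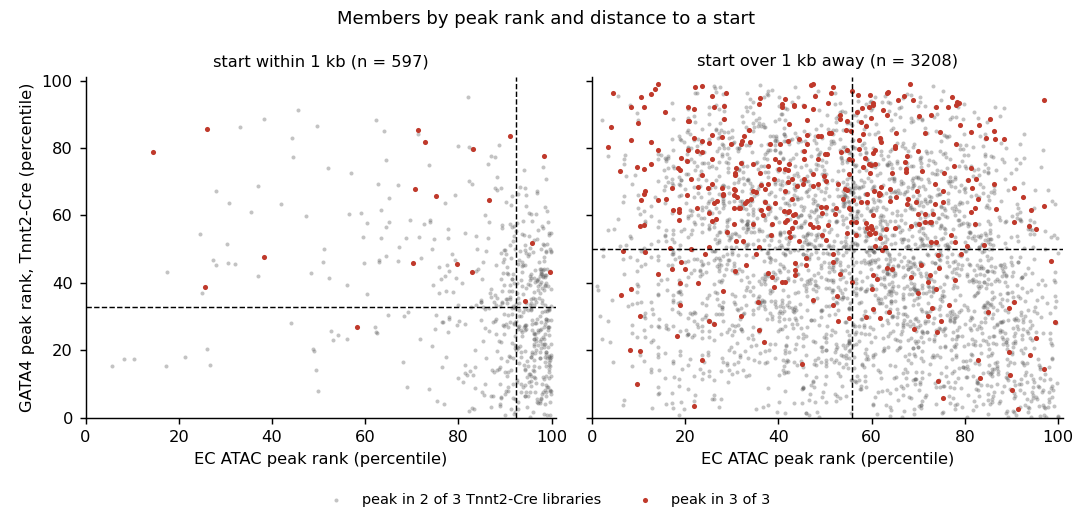
Each point is 1 member, with its mean percentile rank in the Tie2-Cre ATAC lists (horizontal) and in the Tnnt2-Cre GATA4 lists (vertical). Red points have a peak in 3 of 3 Tnnt2-Cre libraries and grey points in 2 of 3. Dashed lines mark the medians, which are 92.3 and 32.7 for the 597 members within 1 kb of a start and 55.9 and 50.1 for the 3208 others.

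Position divided the members into 2 kinds. The centre of 597 members (15.7%) lay within 1 kb of a transcription start of the count table, against 58 of 5281 (1.10%) for Tnnt2-Cre-selective regions not open in EC, 5.34% for open Tie2-Cre-selective regions and 27.4% for open shared regions. RefSeq holds further starts: of the 222 members with a RefSeq start inside, 57 lay over 1 kb from a start of the count table. By gene annotation 1915 members were centred in introns, 1620 between genes and 270 in exons. The median distance to a start was 23227 bp for members and 50794 bp for Tnnt2-Cre-selective regions not open. The promoter share followed the rule for membership: it was 4.27% among the 445 members with a peak in 3 of 3 libraries, 6.80% with GATA4 lists of equal length, 4.09% without Tnnt2-Cre replicate 1 and 4.28% without Tnnt2-Cre replicate 3.

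The 2 kinds also differed in how the GATA4 and ATAC peaks sat on each other. For members away from a start the median distance from the GATA4 summit to the nearest Tie2-Cre ATAC summit was 61 bp, and 65.9% lay within 100 bp. For members within 1 kb of a start it was 215 bp, and 27.5% lay within 100 bp. The ATAC region beneath a member was wide at starts, with a median of 1722 bp, against 572 bp elsewhere. Gapdh, the glycolytic enzyme gene, had 2 members in 1 open promoter, 600 bp inside and 585 bp upstream of the start. Both took the ATAC rank of 97.6 from it, but the inner one held a peak in all 6 het and ko libraries and the outer one in 0.

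Genes next to members were mixed in their RNA, with CM-higher genes more numerous than EC-higher ones. Of 3805 members, 2613 had a start within 50 kb, and these pointed to 2305 genes, of which 1866 passed the low-count filter and were tested. In the edgeR quasi-likelihood test 845 were higher in CM and 652 higher in EC at an adjusted p under 0.05, and 369 were not called. Over all 14851 genes tested 77.8% were called, 40.2% as higher in CM and 37.5% as higher in EC, so the background is high. The share of CM-higher among called genes was 56.4% for the members and 51.7% for all genes, and the median log2 difference, CM over EC, was 0.19 and 0.06. Genes next to Tnnt2-Cre-selective regions that were not open gave 65.3% with a median of 0.44, and genes next to open Tie2-Cre-selective regions gave 34.6% with a median of -0.50. No test of these shares was made. In bulk RNA fewer cells of a type and less RNA per cell cannot be told apart.

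**Figure D2:**
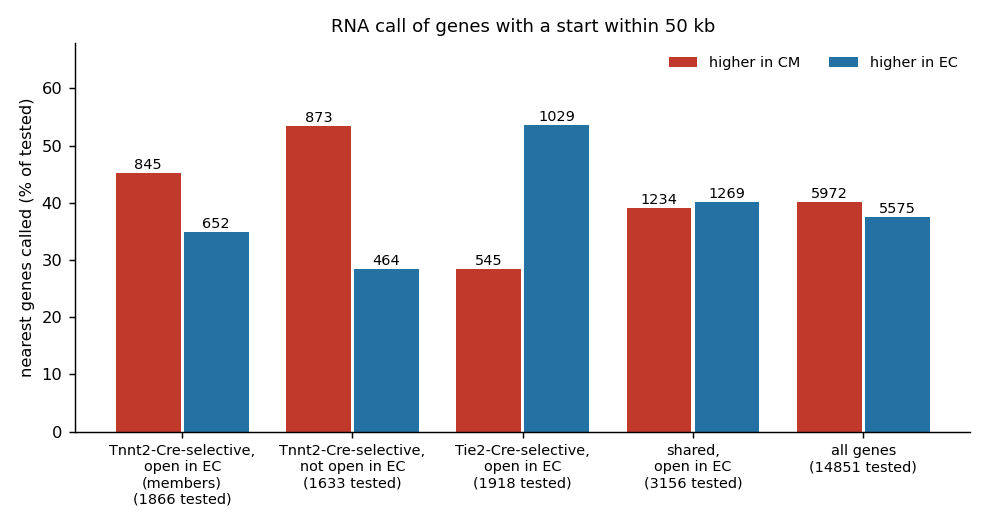
Bars give the share of tested nearest genes called higher in CM (red) or in EC (blue) for 4 classes of GATA4 region and for all genes, with the number of genes printed above each bar. Of the tested genes of members 45.3% are CM-higher, between 53.5% for not open Tnnt2-Cre-selective regions and 39.1% for open shared regions.

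The share of CM-higher nearest genes was larger among members with more or stronger GATA4 peaks, without a test of the difference. Members with a peak in 3 of 3 libraries had 125 CM-higher and 52 EC-higher nearest genes (70.6%), and members with a peak in 2 of 3 had 758 and 609 (55.4%). With GATA4 lists of equal length the share was 67.2%. In 4 groups of 951 or 952 members ordered by GATA4 rank it was 56.4%, 55.8%, 56.5% and 63.6%, from the weakest to the strongest. EC expression was about as common among genes next to members as among all genes. Of those tested 77.8% reached 1 RPKM (read counts scaled to exon length and library size) in EC, against 76.2% of all genes. Among genes next to regions that were not open 72.9% did. In CM 83.5% of members' genes reached 1 RPKM, against 77.4% of all genes and 81.4% of genes next to regions that were not open. The shares lay furthest apart at starts. Genes with a member at their start were 267 CM-higher and 184 EC-higher (59.2%), and 80.3% reached 1 RPKM in EC, whereas the 41 tested genes with a not open Tnnt2-Cre-selective region at their start were 38 CM-higher and 1 EC-higher, and 29.3% reached it.

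About as many of the members' genes were shared with one Cre-selective class as with the other, and their RNA calls ran in opposite directions. Of the 2305 genes, 447 also had a not open Tnnt2-Cre-selective region as neighbour (19.4% of members' genes and 20.1% of the others') and 468 an open Tie2-Cre-selective one (20.3% and 18.4%). Genes of members and not open regions without Tie2-Cre-selective ones were 164 CM-higher and 65 EC-higher (71.6%). Those of members and open Tie2-Cre-selective regions without not open ones were 89 and 133 (40.1%). Genes near members alone, 1164 in all, were 408 and 319 (56.1%). Within 10 kb of a Tie2-Cre-selective region lay 334 members (8.78%), against 309 not open Tnnt2-Cre-selective regions (5.85%). Near Myh7, the slow myosin heavy chain gene, the gap was 859 bp, and near Kank1, a cortical actin regulator gene, 709 bp.

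Sarcomere genes, which build the contractile unit, were CM-higher throughout. Of 30 listed genes all 30 were higher in CM, with a median log2 difference of 6.63, and 8 of them had 10 members: Csrp3, Ldb3, Lmod2, Mybpc3, Myh7, Nebl, Tnnt1 and Tpm1. Not open Tnnt2-Cre-selective regions were nearest to more of them, 14 genes (25 regions). Open shared regions were nearest to 6 (10 regions) and open Tie2-Cre-selective ones to 2 (2 regions). Myh7 stood at 157 and 169 CPM in EC and 32023, 34045 and 36342 in CM, and its member (chr14:55003829-55004958, 9845 bp upstream, GATA4 peak in 3 of 3, rank 83.9) had an ATAC peak in 1 het and 1 ko library. Myh6 is close to Myh7 in sequence and can share reads with it, so the Myh7 value is uncertain to that extent. Mybpc3, the cardiac myosin-binding protein gene, read 25.3 and 30.5 CPM in EC and 3219, 3185 and 3313 in CM. Its member covered the start (chr2:91117825-91118257) with peaks in 3 of 3 GATA4 libraries and in 0 of 6 het and ko libraries. The GATA4 rank was 47.6, from 68.3, 15.3 and 59.2 in Tnnt2-Cre replicates 1 to 3. For Tpm1, the tropomyosin gene, a member lay 41570 bp upstream, and CPM were 421 and 409 in EC and 4079, 3735 and 3671 in CM. The groups did not overlap for any of these 3 genes, with log2 differences of 7.71 (SE 0.13), 6.86 (SE 0.12) and 3.21 (SE 0.09) and edgeR adjusted p-values of 1.67e-11, 1.67e-11 and 2.30e-10. Members at the starts of Lmod2, a thin filament length regulator gene, and Nebl, the nebulette gene, had peaks in 3 het and 2 ko libraries each.

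Of the calcium handling and ion channel genes, which set the rhythm and trigger contraction, all 24 tested were higher in CM, and the 9 tested ones with members ranged in log2 difference from 0.93 for Kcnq1 to 7.82 for Kcnj3, both potassium channel genes. Among the 25 listed, members were nearest to 10 (11 regions) and not open Tnnt2-Cre-selective regions to 14 (21 regions). Open shared regions were nearest to 12 (14 regions) and open Tie2-Cre-selective ones to 5 (5 regions). Atp2a2, the calcium pump of the sarcoplasmic reticulum, read 373 and 402 CPM in EC and 1918, 1952 and 2088 in CM, and had 2 members upstream, the stronger at chr5:122520600-122521468 with a GATA4 rank of 81.3. Jph2, a junctional membrane protein gene, had a member 43849 bp into the gene and 4.11 and 3.49 CPM in EC against 149, 180 and 210 in CM. Hcn4, the pacemaker channel gene, was low in both, with 1.74 and 2.17 CPM in EC and 8.43, 9.11 and 10.7 in CM. The Hcn4 and Atp2a2 groups did not overlap, and the log2 differences were 2.27 (SE 0.20) and 2.36 (SE 0.08), with edgeR adjusted p-values of 1.61e-06 and 1.13e-09.

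Cardiac transcription factor genes next to members split by direction. Ankrd1, Myocd, Prox1 and Tbx5 were higher in CM, by 6.0, 5.30, 1.84 and 1.13 on the log2 scale, and Gata5, Tbx3 and Mef2d were higher in EC, with log2 differences (CM over EC) of -2.91, -1.86 and -1.60. Over the whole list of 26 genes 15 were higher in CM and 11 in EC. Tbx3, a repressor of the conduction system, had a member upstream (chr5:119651529-119652290, GATA4 peak in 3 of 3, rank 84.6) with an ATAC peak in all 6 het and ko libraries, and read 17.2 and 20.0 CPM in EC and 4.43, 4.66 and 6.19 in CM. Prox1, a homeobox gene that acts in both lymphatic endothelium and heart muscle, had 2 members with no peak in the 6 libraries, and read 14.6 and 18.3 CPM in EC and 46.7, 56.8 and 72.7 in CM. The Prox1 and Tbx3 groups did not overlap. Among GATA partners Zfpm1, which encodes the cofactor FOG1, had 2 intronic members and was higher in EC (log2 difference -2.40, SE 0.08, edgeR adjusted p = 9.77e-10). Tead3, a partner of YAP, was not called, with 11.4 and 6.29 CPM in EC and 9.35, 11 and 12.1 in CM, where the groups overlap (log2 difference 0.27, SE 0.22, edgeR adjusted p = 0.279). Without EC replicate 1 the Tead3 difference was 0.79 with an adjusted p of 0.00644, and without EC replicate 2 it was -0.07.

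Of 14 tested genes for hormones and other secreted or surface products of heart muscle 10 were higher in CM and 3 in EC, and 4 had members: Nppb, Bmp10 and Dkk3, higher in CM, and Ncam1, higher in EC. Nppb, the B-type natriuretic peptide gene, lay beneath a wide member (chr4:147985593-147986868, GATA4 peak in 3 of 3) that was open in all 6 het and ko libraries. It stood at 4.40 and 4.26 CPM in EC and 186, 161 and 160 in CM. Bmp10, a ligand made by trabecular muscle, had a member 14694 bp past its start with a GATA4 rank of 89.8 and peaks in 2 het and 2 ko libraries. Its CPM were 1.21 and 1.36 in EC and 74.0, 73.6 and 58.9 in CM. The log2 differences were 5.28 (SE 0.12) and 5.75 (SE 0.17), with edgeR adjusted p-values of 6.70e-11 and 3.61e-10, and the groups of neither gene overlapped. Dkk3, a secreted Wnt modulator gene, differed by 1.30 (SE 0.14), and Ncam1, a cell adhesion gene, by -0.60 (SE 0.11, edgeR adjusted p = 4.42e-04).

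Energy metabolism genes were mostly CM-higher with or without a member: 18 of 20 glycolysis and 17 of 20 fatty acid oxidation genes. Of the glycolysis genes 8 had members, 7 of them higher in CM (Aldoa, Eno3, Hk2, Pfkp, Pgam1, Pgam2 and Tpi1, by 0.87 to 6.31 on the log2 scale) and 1, Gapdh, higher in EC (log2 difference -0.90). Gapdh, Aldoa, Tpi1 and Pgam1 have close copies in the genome that can share reads, so their values are uncertain. Pgam2, the muscle phosphoglycerate mutase gene, had a member at its start (GATA4 rank 59.9, ATAC rank 47.3) and read 3.79 and 4.26 CPM in EC and 293, 312 and 353 in CM. Hk2, the hexokinase gene, with 2 intronic members, read 41.3 and 39.9 CPM in EC and 127, 145 and 163 in CM. Both pairs of groups stood apart. Of the 20 fatty acid oxidation genes 5 had members and all 5 were higher in CM: Acadm by 2.45, Acsl1 by 1.48, Pdk4 by 0.84, Ppargc1a by 4.07 and Ppargc1b by 2.66. Pdk4, a brake on glucose oxidation, had a member at its start with an ATAC rank of 96.8 and peaks in all 6 het and ko libraries, and stood at 26.3 and 31.4 CPM in EC and 47.8, 51.0 and 55.8 in CM.

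All 24 endothelial genes listed were higher in EC, so the direction of those with members is that of the list. Members were nearest to 3 of the 24 (5 regions), Kdr, Pecam1 and S1pr1, and to 12.6% of all tested genes, whereas 18 had an open Tie2-Cre-selective region (31 regions) and 1 had a not open Tnnt2-Cre-selective one. Kdr, a VEGF receptor gene, had a member 16513 bp into the gene (GATA4 rank 11.1, ATAC rank 82.6) with peaks in all 6 het and ko libraries, and read 882 and 882 CPM in EC and 136, 149 and 133 in CM. Pecam1, a junction protein gene, had 2 members with GATA4 ranks of 58.1 (peak in 3 of 3 libraries) and 82.8 (2 of 3). Each was open in 2 het and 2 ko libraries. Pecam1 read 639 and 644 CPM in EC against 109, 107 and 90.5 in CM. The groups of both genes stood apart, with log2 differences of -2.66 (SE 0.07) and -2.65 (SE 0.09) and edgeR adjusted p-values of 2.22e-10 and 6.33e-10. Of 24 endothelial transcription factor genes, again all 24 higher in EC, Elk3, Ets2, Foxc1, Foxo1 and Klf2 had 1 member each and were higher in EC, with log2 differences of -3.38, -2.38, -1.27, -4.43 and -3.20. Klf2, the shear-responsive factor gene, read 176 and 152 CPM in EC and 17.1, 18.5 and 18.0 in CM.

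Signalling genes with members were mostly EC-higher. In the Notch list the ligand gene Dll4, the effector genes Hes1 and Hey1 and the feedback gene Nrarp had 1 member each and were all higher in EC, with log2 differences of -2.94, -2.25, -1.78 and -2.27. Over the 16 Notch genes 12 were higher in EC and 3 in CM. The Dll4, Hes1 and Nrarp members had a peak in 0 of 6 het and ko libraries, and the Hey1 member in 1 het and 2 ko. Dll4 read 40.0 and 41.7 CPM in EC and 4.06, 5.60 and 6.31 in CM. Of the BMP and TGF-beta genes 7 had members: the ligand genes Bmp10, Bmp6 and Tgfb2, the receptor genes Acvr1, Tgfbr2 and Tgfbr3, and the inhibitory Smad6. Over the 22 genes of that list 15 were higher in EC and 3 in CM. Of those with members all but Bmp10 were higher in EC, with log2 differences from -0.90 for Tgfb2 to -2.73 for Acvr1. Bmp6 had a member upstream with peaks in 3 of 3 GATA4 libraries and in all 6 het and ko libraries, and read 23.5 and 17.0 CPM in EC and 3.81, 3.86 and 4.33 in CM.

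**Figure D3:**
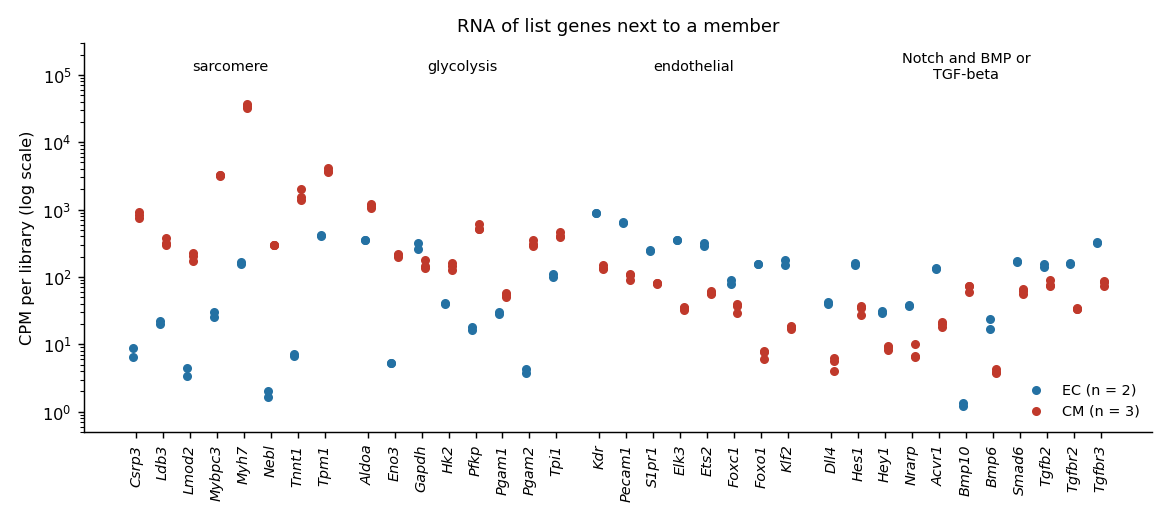
Points are CPM in single libraries on a log scale for genes with a member within 50 kb, EC (blue, 2 libraries) and CM (red, 3 libraries). The 8 sarcomere genes are higher in CM and the 8 endothelial and endothelial transcription factor genes higher in EC. Gapdh among the glycolysis genes and Bmp10 in the last group run against the rest of their group.

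Genes with members in the remaining lists went both ways. Cgnl1, a cell junction gene of the endocardial list, had a member 37859 bp into the gene with peaks in 3 of 3 GATA4 libraries and in 0 of 6 het and ko libraries, and was higher in EC (log2 difference -1.86). All 4 endocardial genes with members were higher in EC, as were 19 of the 20 listed. Ctgf, a matrix signalling gene and YAP target, had a member upstream open in 3 het and 2 ko libraries and was higher in CM by 2.39 (SE 0.16). Sav1 and Yap1, members of the Hippo pathway, were higher in EC (log2 differences -0.53 and -0.68). Vcl, the vinculin gene, and Ctnna3, an alpha-catenin of the intercalated disc, were higher in CM by 0.96 and 5.44. Igf1r, the IGF receptor gene, had 3 members, the strongest with a GATA4 rank of 85.4, and was higher in CM by 0.54. Acta2, smooth muscle actin, was higher in CM by 4.98, with a member 2628 bp past its start. Dusp1 and Nr4a1, immediate early genes, were higher in EC (-2.33 and -2.08 on the same scale), and Btg2 in CM (2.09). Sfrp5, a secreted Wnt inhibitor gene, had a member at its start and was low, with 0.0354 and 0 CPM in EC and 1.44, 1.55 and 1.41 in CM. Aurkb, the one cell cycle gene with a member, was higher in EC (log2 difference -0.23, SE 0.09, edgeR adjusted p = 0.0391), a call that was lost without EC replicate 1 (adjusted p = 0.428), without CM replicate 2 (0.126), without the low-count filter (0.0996) and with DESeq2 (0.0613). None of the 20 blood and macrophage genes had a member. Over all lists 83 tested genes had a member, 46 higher in CM and 36 higher in EC, with 1 not called. Of all genes tested 77.8% were called, and every gene of the sarcomere and endothelial lists was called with or without a member. The count therefore reflects the choice of lists.

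The greatest RNA differences next to members, among called genes at 20 CPM or more throughout the higher cell type, are given next. Mb, the myoglobin gene, read 1.77 and 0.951 CPM in EC and 401, 389 and 719 in CM, with a member 6092 bp upstream in an exon of Apol6 (GATA4 peak in 3 of 3, rank 70.7, 0 of 6 het and ko libraries). Klhl31, a muscle kelch gene, had a member across its start and read 0.886 and 0.589 CPM in EC and 207, 201 and 234 in CM. Cmya5, a muscle scaffold gene, read 0.142 and 0.0906 CPM in EC and 46.7, 49.1 and 66.0 in CM. The log2 differences were 8.48 (SE 0.39), 8.14 (SE 0.16) and 8.78 (SE 0.31), with edgeR adjusted p-values of 8.22e-09, 3.17e-11 and 1.23e-09. The noncoding gene 2900060B14Rik, inside Clasp1, had 0 counts in both EC libraries and 126, 153 and 129 CPM in CM, at least 2239-fold higher by a floor of 3 counts over the EC group. Its 5 members, 4 of them in Clasp1 introns, made it a gene with most members, with Gmpr, a guanosine monophosphate reductase gene (also 5, and higher in CM by 2.28). Rnu12, a small nuclear RNA gene, was low in EC (0.177 and 0 CPM) and spread widely in CM (195, 58.0 and 62.2), so its value is uncertain. The count columns of EC and CM are named in different forms. A difference in library preparation therefore cannot be told apart from cell type for any gene in this report, 2900060B14Rik and Rnu12 included.

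On the EC side Tcf7l1 and Gata3 had members at their promoters and Papss2, Ltbp4, Foxo1 and Coro2b away from them. Tcf7l1, a Wnt pathway repressor, read 107 and 116 CPM in EC and 1.56, 2.24 and 2.78 in CM, and its member 498 bp upstream had an ATAC rank of 97.7 and peaks in all 6 het and ko libraries. Gata3, another GATA factor, read 30.1 and 24.4 CPM in EC and 0.645, 0.730 and 0.539 in CM. Its member 858 bp upstream had a GATA4 rank of 8.17 and an ATAC rank of 98.5. Foxo1, a forkhead factor gene of vessel growth, read 156 and 157 CPM in EC and 6.02, 8.05 and 7.81 in CM, with a member 49148 bp upstream. In these 3 genes every EC library exceeded every CM library, and the log2 differences were -5.67 (SE 0.16), -5.41 (SE 0.18) and -4.43 (SE 0.11), with edgeR adjusted p-values of 2.45e-10, 6.11e-10 and 1.35e-10. For Papss2, a sulphate donor synthase, Ltbp4, a TGF-beta binding matrix protein, and Coro2b, a coronin, the differences were -4.90, -4.84 and -4.20.

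The strongest GATA4 members varied in how open they were in EC. The 8 with the highest GATA4 rank among those with a peak in 3 of 3 libraries ranked 97.6 to 99.1, and 7 of them were 37381 to 257431 bp from the nearest start of the count table, while the other, near Mmp13, a collagenase gene, lay 2194 bp from it. Their ATAC ranks ran from 13.5 to 68.2, and 6 of the 8 were below 50. The strongest (chr1:135524245-135524985) lay in an intron of Nav1, a neuron navigator gene, with authors' folds over background of 11.7, 10.4 and 14 in Tnnt2-Cre replicates 1 to 3, with the ATAC rank of 68.2, and with 2 het and 3 ko peaks. The next lay in an intron of Rtn1, a reticulon gene (chr12:72343569-72344051, folds 13.3, 9.54 and 16), and the third 126238 bp upstream of Hif1a, the hypoxia factor gene (chr12:73781264-73781994, folds 12.1, 9.71 and 13.8). The Rtn1 and Hif1a regions had a peak in 0 of 6 het and ko libraries. These starts are beyond the 50 kb used for gene calls: Rtn1 read 52.6 and 52.8 CPM in EC and 1.23, 1.58 and 1.53 in CM, and Hif1a 288 and 323 in EC and 1413, 1324 and 1241 in CM, so the nearest genes ran in opposite directions. At the other end, 3 of the 4 members with the highest ATAC rank lay between 3004485 and 3029719 on chromosome 9, at the beginning of its assembled sequence. There 18 GATA4 regions of the 4 classes compared here crowded together, and 2 of these 3 members had GATA4 ranks of 0.284 and 0.455. All 3 took the same ATAC folds, 36.2 and 31.8 in Tie2-Cre ATAC replicates 2 and 3. Their GATA4 summits lay 4135, 15248 and 28986 bp from the nearest ATAC summit. The fourth lay in an intron of Tom1l2, an endosomal adaptor gene, 880 bp from its start.

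Members were open less often in the Cdh5-CreERT2 sorted cells than the other open classes. The share with an ATAC peak was 62.8%, 54.9% and 42.5% in het replicates 2, 3 and 4 and 57.5%, 53.2% and 37.0% in ko replicates 2, 3 and 4. Within each genotype the shares were ordered as the lengths of the peak lists, which held 90326, 82612 and 67201 peaks in het and 87496, 79263 and 55733 in ko. The mean was 53.4% ± 10.2 in het and 49.2% ± 10.8 in ko (SD, n = 3 each), a difference of 4.20 points that is smaller than the spread within either group. Its sign hung on single libraries, being -0.49 points without het replicate 2 and -1.90 without ko replicate 4. Leaving out a library of one genotype also changes the list lengths compared. Between same-numbered libraries het minus ko was 5.36, 1.71 and 5.55 points in replicates 2, 3 and 4. The labels do not say whether equal numbers mark pairs. With the 6 lists cut to the shortest the difference of the means was 1.15 points, and replicate 3 gave 39.5% in het and 40.2% in ko. Open Tie2-Cre-selective regions gave 84.6% and 81.5%, open shared regions 87.8% and 85.9%, and not open Tnnt2-Cre-selective regions 3.59% and 2.44%.

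**Figure D4:**
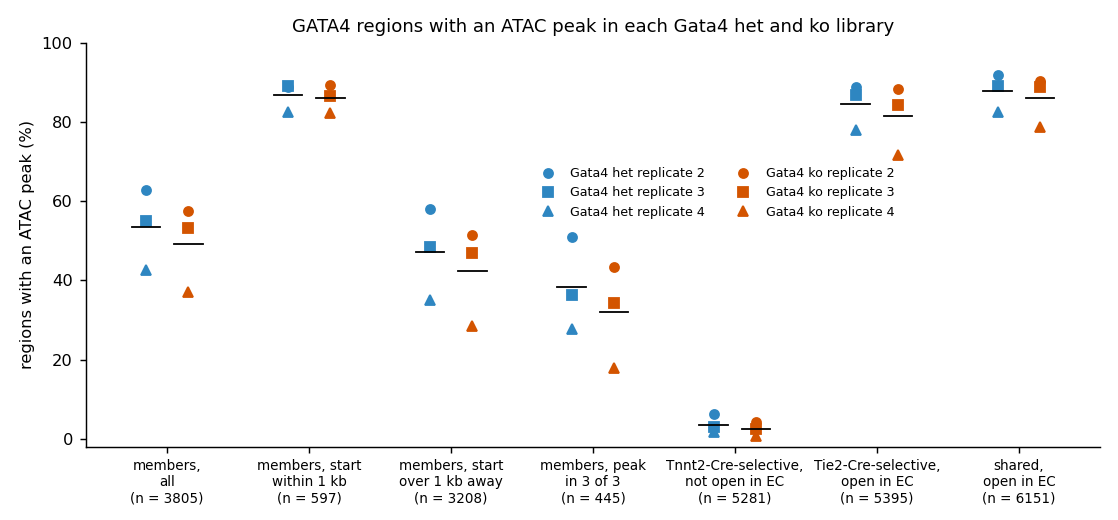
Points give the share of regions with an ATAC peak in each Gata4 het (blue) and ko (orange) library, with the replicate by symbol and the group mean as a line. Members range from 37.0% to 62.8%, members within 1 kb of a start from 82.2% to 89.3%, and het and ko points overlap in every column.

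The members fell into open and closed portions in those cells along the same division by position. A peak was present in all 6 libraries in 1094 members (28.8%, against 37.9% of all 101038 regions open in both Tie2-Cre libraries) and in none in 869 (22.8%, against 20.5%). Those peaks were sought within the member, whereas for all open regions they were sought across the whole ATAC region. Scored across the ATAC region, a choice made after seeing the data, members gave 36.1% in all 6 and 19.1% in none. Of the 1094 members open in all 6 when scored within the member, 41.4% lay within 1 kb of a start, and of the 869 open in none, 3.57% did. Members at starts were open in 86.8% ± 3.68 of cases in het and 86.0% ± 3.55 in ko, and the others in 47.2% ± 11.5 and 42.4% ± 12.1 (SD, n = 3 each). Members with a GATA4 peak in 3 of 3 libraries were open in 38.3% ± 11.8 and 31.9% ± 12.9. RNA of the nearest genes followed this order less clearly: the CM-higher share among called genes was 52.8% for members open in all 6, 61.3% for those open in 1 to 5 and 56.0% for those open in none.

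A peak in 3 of 3 libraries of one genotype and in 0 of 3 of the other was rare. It was seen for het in 12 members, 0.315% of them against 0.322% of all open regions, and for ko in 5 members, 0.131% against 0.121%, both near the background. The background counts peaks across the whole ATAC region, and scored that way the members numbered 10 and 5. None of the 17 had a GATA4 peak in 3 of 3 Tnnt2-Cre libraries or lay within 1 kb of a start of the count table, although the member in Iqgap2 (chr13:95763741-95764190) holds a RefSeq start, that of Gm32702. The strongest of the 12 in Tie2-Cre ATAC lay in introns of Itpr2, Phldb2, Gbas and Syne2. Of the 5, which all lay over 50 kb from a start of the count table, 3 were in introns of Tenm2, Iqgap2 and Shroom3, and the others were nearest to Ccdc68 and Cdc7. Itpr2, an inositol trisphosphate receptor gene, was not called, with 129 and 128 CPM in EC and 127, 128 and 130 in CM, where the groups overlap. Phldb2 was higher in EC (log2 difference -0.72), and Syne2, a nuclear envelope linker gene, and Gbas in CM by 1.75 and 2.96. With each of the 6 het and ko libraries left out in turn the counts were 15 to 70 for het and 7 to 32 for ko, since fewer libraries then had to lack a peak, and with stricter het and ko peaks they were 7 and 1.

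Short motifs were counted in the 247 promoter windows whose start lay in a member. AGATAA, on either strand, was found in 15.4% of these windows and in 11.2% of all 32851 RefSeq windows of the same length. Not open Tnnt2-Cre-selective regions gave 29.3% of 41 windows, open Tie2-Cre-selective regions 27.7% of 166 and open shared regions 16.9% of 1252. Its core GATAA, which every AGATAA contains, gave 28.7% for members and 25.4% for all. The GC box GGGCGG was in 50.6% of member windows, 35.7% of all and 2.44% of those at not open regions. The MEF2 letters TATTTAT were in 4.05%, 5.60% and 19.5% of these, and the ETS letters AGGAAG in 27.5%, 35.4% and 14.6%. Member windows held a median of 16 CpG and 58.3% G and C, all windows 7 and 52.7%, and windows at not open regions 4 and 48.7%. Some genes have several windows that share bases. A match is a run of letters and not a shown site. Sequence of members away from gene starts was not analysed here.

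**Figure D5:**
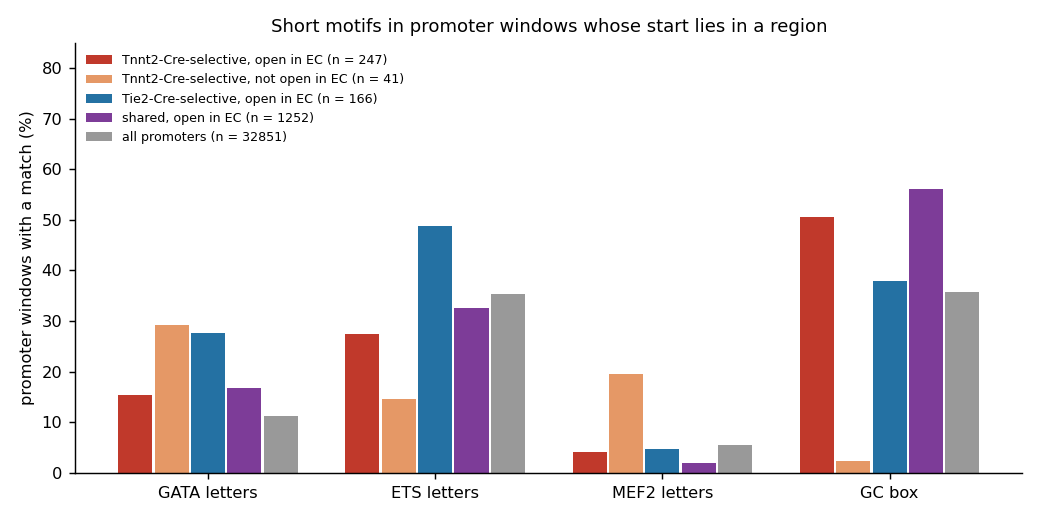
Bars give the share of promoter windows of 300 bases that hold each short motif on either strand, for windows whose start lies in a region of each class and for all windows. Members reach 15.4% for the GATA letters and 50.6% for the GC box, close to the shared class (16.9% and 56.1%), while the not open class reaches 29.3% and 2.44%.

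Depth and purity of the RNA bear on all gene values above. Reads on genes came to 21682362 and 27660790 in the EC libraries and 42948614 to 48393473 in the CM libraries. The summed level of 7 cardiomyocyte markers was 348 and 355 CPM in EC and 71742 to 81726 in CM, and that of 7 endothelial markers was 4933 and 4880 in EC and 623 to 719 in CM. The 3 tested blood markers summed to 6.59 and 5.89 CPM in EC and 3.68 to 4.25 in CM, and 6 epicardial and mural markers to 698 and 673 in EC and 257 to 277 in CM. Each library thus matched its label, with some signal of the other cell type in both. The part of that signal in the gene values was not tested. No pair of replicates was within sampling noise of one another, with a chi-square per degree of freedom of 8.05 for the EC pair and 14.1 to 35.7 for the CM pairs.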

How the data were processed

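The data were 14 peak lists and a read-count table for EC and CM from E12.5 mouse ventricle. Bowtie 1.1.1, Bowtie2 2.2.9, STAR 2.7.3a and MACS2 2.2.4 are named, without a role, in the submitters' processing notes with the build mm10. Peak names carry MACS2's name, and featureCounts 1.6.3 made the count table, per the file headers. No control library for peak calling is named in the labels. In the peak lists the fold over background and the -log10 p and q of each peak are the authors' deposited values, used here for ranks and thresholds inside each list alone. The counts per gene were deposited by the authors as whole reads, stranded, per the file headers. Members and gene lists were chosen with earlier results of these data known.

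Peaks were merged with Python 3.11.15 at 1 bp of overlap, and a gene was assigned where its start, from the exons of the count table, was the nearest within 50 kb. RNA was tested with edgeR 4.0.16 (quasi-likelihood, TMM factors, filterByExpr, Benjamini-Hochberg over 14851 genes, adjusted p under 0.05) and alternatively with DESeq2 1.42.0. The pipeline was tested on simulated data. Named genes were the nearest to up to 3 members per gene list by GATA4 rank, to the 8 strongest members in GATA4 and 4 in ATAC, to up to 4 members open in het or ko alone, the 4 genes with most members, and the 6 most different called genes in each direction with at least 20 CPM. Others named were members of a list in full or were chosen after their values were seen. Total counts ranged from 21682362 to 48393473 per library. No depth is known for peak lists. Same-numbered EC and CM RNA libraries share only a number.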

Additional observations from a re-analysis of the deposited data

How the results depend on the processing

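Peak lists of unequal length set most limits. Stricter GATA4 peaks, a cover of 50% by the open region, or leaving out the second GATA4 library of each lineage (3793 members, chosen after seeing the data) kept the member count within 1.5 times, whereas GATA4 lists of equal length gave 941, a peak in 3 of 3 gave 445 and leaving out libraries gave 444 to 5900. The share of members within 1 kb of a start was 17.2% with stricter peaks, 6.80% with equal lists, 4.27% with 3 of 3, 11.9% within 500 bp, 19.5% within 2 kb, and 4.09% to 21.9% with libraries left out. The share of CM-higher among called nearest genes was 67.2% with equal lists, 70.6% with 3 of 3, 55.3% to 70.2% with libraries left out and 56.3% with a replicate block in the RNA fit. Members open in het alone numbered 2 with equal GATA4 lists, 0 with 3 of 3, 7 with stricter het and ko peaks and 0 to 70 with libraries left out. For ko alone the numbers were 0, 0, 1 and 0 to 32. The het minus ko difference ranged from -1.90 to 9.64 points with libraries left out. It reversed to -0.491 without het replicate 2 and to -1.90 without ko replicate 4. A replicate block gave 4.20, which equals the unblocked difference by construction, so it is no check. The number of genes called stayed within 1.5 times under all 10 alternatives, at 5613 CM-higher and 5261 EC-higher with the block. Same-numbered RNA libraries deviated with a correlation of -0.018. Deviations were taken from the mean of replicates 1 and 2, so both pairs give the same value by construction, and it says little about pairing. Of 64 named genes, no called one changed sign, Aurkb lost its call in 4 alternatives, and Tead3 and Tom1l2 were called without EC replicate 1 (adjusted p = 0.00644 and 0.0433). Scaling moved the median of all genes by at most 0.05 on the log2 scale.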

Other observations

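Among the 299 members with a Tie2-Cre ATAC rank of at least 95, 29 (9.70%) had no ATAC peak within the member in any of the 6 het and ko libraries. Of the open Tie2-Cre-selective and open shared regions at that rank, 22 of 1716 (1.28%) had none. Open GATA4 regions outside these classes were not counted. The 29 members included intronic ones of Vcl and Tom1l2, and others beside S1pr1, Spry2 and Gapdh. All 29 lay on wide ATAC regions, with a median of 3184 bp and a range of 1368 to 38512 bp, and each of these regions held a peak elsewhere in all 6 libraries. When a het or ko peak anywhere in the ATAC region was counted, a choice made after seeing the data, 1373 members (36.1%) were open in all 6 libraries and 725 (19.1%) in none.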
